A study of Mus musculus with 11 samples.

Results

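The hypoxia-response genes described here are 10 named genes: Hif1a and Epas1, which encode oxygen-regulated transcription factor subunits, Egln1 and Egln3, which encode oxygen-sensing prolyl hydroxylases, and 6 genes known as targets of those factors, namely Vegfa, Adm, Bnip3, Pdk1, Ndrg1 and Ankrd37. They were chosen by name from the 24849 genes of the deposited count table, and each of the 10 has a single entry there. The RNA came from AML12 cells, an immortalized line of mouse hepatocytes, in 3 groups that were described by 11 libraries of polyadenylated RNA. The 3 WT libraries (5-6, 7 and 8) came from unedited cells. The 4 KO libraries (5, 6, 7 and 8), whose genotype the labels give as TXNDC5 Knockdown, came from cells in which Txndc5 was cut with CRISPR/Cas9 and joined to a puromycin resistance gene, followed by puromycin selection. The 4 KI libraries (5, 6, 7 and 8), with the genotype TXNDC5 Knockin, came from cells made to overexpress TXNDC5 from the ROSA26 locus, and their promoter and selection are not given in the sources used here. TXNDC5 is a protein disulfide isomerase of the endoplasmic reticulum. Neither the labels nor the methods mention a low-oxygen treatment, so every value below is a level in culture without a stated one. The paper describes collecting cells for RNA at or near full confluence. The oxygen in the incubator and at the cells is not given in the sources used here. Whether each edited line is 1 clone is also not given, nor whether the libraries of a group are separate cultures, so p-values measure the spread between these libraries only.

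In well-oxygenated cells the prolyl hydroxylases mark the alpha subunits HIF-1α (Hif1a) and HIF-2α (Epas1) for capture by the von Hippel-Lindau protein and for degradation, so the regulation of these factors is mainly at the level of protein. When oxygen falls the alpha subunits persist, pair with ARNT and bind short hypoxia response elements, which turns on genes for glycolysis, mitochondrial removal, vessel growth and the hydroxylases themselves. In the liver HIF-2α is known for its ties to lipid storage. Protein levels of the factors were not measured in these libraries.

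The core letters of a hypoxia response element are ACGTG or GCGTG, and windows at gene starts of the members were searched for both on either strand. RefSeq windows from 250 bases before to 50 bases after a gene start, on GRCm38.p6, were found for 8 of the 10 members, as 10 windows. Epas1 and Ndrg1 had no window. ACGTG stood in 6 of the 10 windows, against 19.6% of 32851 mouse windows of the same length. GCGTG also stood in 6 of the 10, against 32.4% of all windows, and 8 of the 10 held one or the other, against 43.8%. A match is a description of the letters and not a binding site. Some windows, of Hif1a, Ankrd37, Vegfa and Pdk1, lie at starts inside the annotated gene. The members were also chosen as known hypoxia genes, so these shares are no evidence about their promoters. The 250 bases before the start are printed below for Bnip3 and Pdk1, which were lower than WT by more than 1 on the log2 scale in both edited lines, for Egln3, and for Adm and Vegfa, which did not pass the test in either edited line. Each runs 5′ to 3′ on the strand of the gene, with the matched letters (or their reverse complement) in capitals.
Bnip3, chr7:138909507-138909756, minus strand: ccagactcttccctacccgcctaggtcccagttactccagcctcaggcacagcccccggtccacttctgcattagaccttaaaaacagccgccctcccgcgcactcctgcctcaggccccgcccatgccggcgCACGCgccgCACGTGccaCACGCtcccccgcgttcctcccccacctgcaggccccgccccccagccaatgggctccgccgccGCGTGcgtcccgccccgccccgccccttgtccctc
Pdk1, chr2:71872974-71873223, plus strand: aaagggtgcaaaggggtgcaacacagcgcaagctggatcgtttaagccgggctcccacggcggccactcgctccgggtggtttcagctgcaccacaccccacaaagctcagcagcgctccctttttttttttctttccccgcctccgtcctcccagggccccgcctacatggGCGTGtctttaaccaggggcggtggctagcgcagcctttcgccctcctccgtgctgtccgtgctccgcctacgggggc
Egln3, chr12:54203875-54204124, minus strand: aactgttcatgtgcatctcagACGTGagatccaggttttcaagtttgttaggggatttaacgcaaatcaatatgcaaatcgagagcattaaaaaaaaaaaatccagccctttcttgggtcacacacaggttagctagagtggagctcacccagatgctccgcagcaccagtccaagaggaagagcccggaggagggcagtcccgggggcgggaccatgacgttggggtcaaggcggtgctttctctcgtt
Adm, chr7:110627407-110627656, plus strand: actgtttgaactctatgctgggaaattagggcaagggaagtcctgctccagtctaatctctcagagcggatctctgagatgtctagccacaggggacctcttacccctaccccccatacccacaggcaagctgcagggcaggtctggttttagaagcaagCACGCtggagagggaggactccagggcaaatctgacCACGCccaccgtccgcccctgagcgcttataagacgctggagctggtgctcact
Vegfa, chr17:46032378-46032627, minus strand: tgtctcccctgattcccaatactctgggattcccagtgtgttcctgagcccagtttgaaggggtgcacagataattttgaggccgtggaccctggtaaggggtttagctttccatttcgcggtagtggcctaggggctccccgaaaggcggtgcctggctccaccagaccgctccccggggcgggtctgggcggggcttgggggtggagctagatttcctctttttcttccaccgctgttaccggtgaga

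Bnip3 held the most matches of the members, with an ACGTG on each strand that together form the palindrome CACGTG, 107 to 108 bases before the start, and GCGTG at 117, 99 and 35 bases, each distance counted to the first base of the match. Pdk1 held GCGTG 78 bases before the start, and a second match, not in capitals, ran across the start itself from 2 bases before it. Egln3 held a single ACGTG 229 bases before the start. Adm held 2 GCGTG on the opposite strand, at 90 and 54 bases. The Vegfa window printed held neither, while a second Vegfa window, at a RefSeq start inside the gene, held 1 of each. A second Pdk1 window, also at a RefSeq start inside the gene, held neither. Of the members not printed, Egln1 held 1 of each, Ankrd37 held 2 of each, and Hif1a held 3 ACGTG. The RefSeq starts used for Ankrd37 and Hif1a lie well inside the annotated genes. Matches were therefore present both in members that changed and in Adm and the second window of Vegfa, which did not pass the test in either edited line. Sequence outside these windows was not searched, so a window without a match does not show that a gene lacks an element.

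Total counts ranged from 29840366 to 38422243 per library. Levels are given as CPM, a gene's count scaled to a fixed library size, after TMM scaling, which corrects each library for its composition and puts all 11 libraries on a single scale. Txndc5, the targeted gene, was at 10.2 ± 1.90 CPM (SD, n = 4) in KO, 143 ± 4.37 (n = 3) in WT and 169 ± 10.3 (n = 4) in KI. It was 14.1-fold lower in KO than in WT (log2 fold change -3.82 ± 0.15 SE, edgeR adjusted p = 4.1e-08), and the KI libraries, all above the WT libraries, did not pass the test (0.24 ± 0.12, edgeR adjusted p = 0.136). Scaled by library totals, the KI difference was 0.57 and passed (edgeR adjusted p = 0.00623). Of 10 hepatocyte markers, 10 had a mean over 1 CPM in KO, 9 in WT and 7 in KI, where Cps1 had 0 to 5 counts per library. Their summed level was 9751 to 11594 CPM in KO, 7382 to 9432 in WT and 8562 to 10141 in KI. Against WT, 5 of the 10 were higher and 3 lower in KO, and of 9 tested in KI 3 were higher and 3 lower. The sums therefore hid shifts in both directions. Alb was at 4115 ± 524 CPM in KO, 513 ± 198 in WT and 246 ± 60.5 in KI, and Trf at 1346 ± 109, 2975 ± 1077 and 1410 ± 101. Of 5 cholangiocyte markers, 4 were detected and Epcam was at 0, with a summed level of 1339 to 1504 CPM in KO, 2974 to 4379 in WT and 2604 to 3083 in KI. Of the 4, 3 were lower and 1 higher in KO than in WT. Spp1 and Krt19, named after their values were seen, made up most of the sum: Spp1 was at 246 ± 29.8 CPM in KO and 2520.3 ± 692 in WT, while Krt19, the higher one, was at 1097 ± 58.9 and 769.7 ± 107. Markers of stellate cells and fibroblasts summed to at most 1.15 CPM in any library, with Col1a2, Col3a1 and Lrat at 0 in all. Endothelial markers summed to at most 0.425, with Tek and Emcn at 0 in all. Macrophage and leukocyte markers summed to 6.73 to 9.20 CPM in WT against 1.32 to 2.21 in KO and 2.52 to 5.66 in KI. Of these, Adgre1 and Clec4f were at 0 counts in every library and Csf1r had at most 6. Cd68 was at 98 to 206 counts per library in WT, 42 to 91 in KO and 51 to 95 in KI. Ptprc was at 37 to 67 counts in WT, 0 to 11 in KO and 39 to 91 in KI. Both Cd68 and Ptprc were called lower in KO than in WT. The part of these shifts in the results below was not tested, and in bulk RNA fewer cells that express a gene and less RNA per cell cannot be told apart.

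All 10 members were detected in every library, from 79 counts for Adm to 55048 counts for Bnip3. Levels of different genes were compared only per kilobase of annotated exon. In WT the order was Bnip3 at 835 ± 256 CPM per kb (SD, n = 3), Ndrg1 at 193 ± 27.8, Egln3 at 139 ± 3.04, Pdk1 at 33.9 ± 2.03, Egln1 at 29.1 ± 5.72, Hif1a at 20.8 ± 2.06, Ankrd37 at 13.4 ± 3.53, Vegfa at 12.6 ± 1.23, Adm at 2.76 ± 0.597 and Epas1 at 1.89 ± 0.743. The ranges of Pdk1 and Egln1 overlapped, as did those of Ankrd37 and Vegfa and those of Adm and Epas1, so these neighbours were not ordered beyond their spread. Bnip3, Ndrg1 and Egln3 kept ranks 1 to 3 in KO and KI, where Bnip3 was at 178 ± 37.6 and 222 ± 31.8 CPM per kb. Epas1 had the lowest mean per kilobase in each group, and its libraries did not overlap those of Adm in KO and KI. Hif1a was at 14.4 ± 0.221 CPM per kb in KO and 21.9 ± 1.32 in KI, against 1.09 ± 0.316 and 2.27 ± 0.217 for Epas1.

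**Figure D1:**
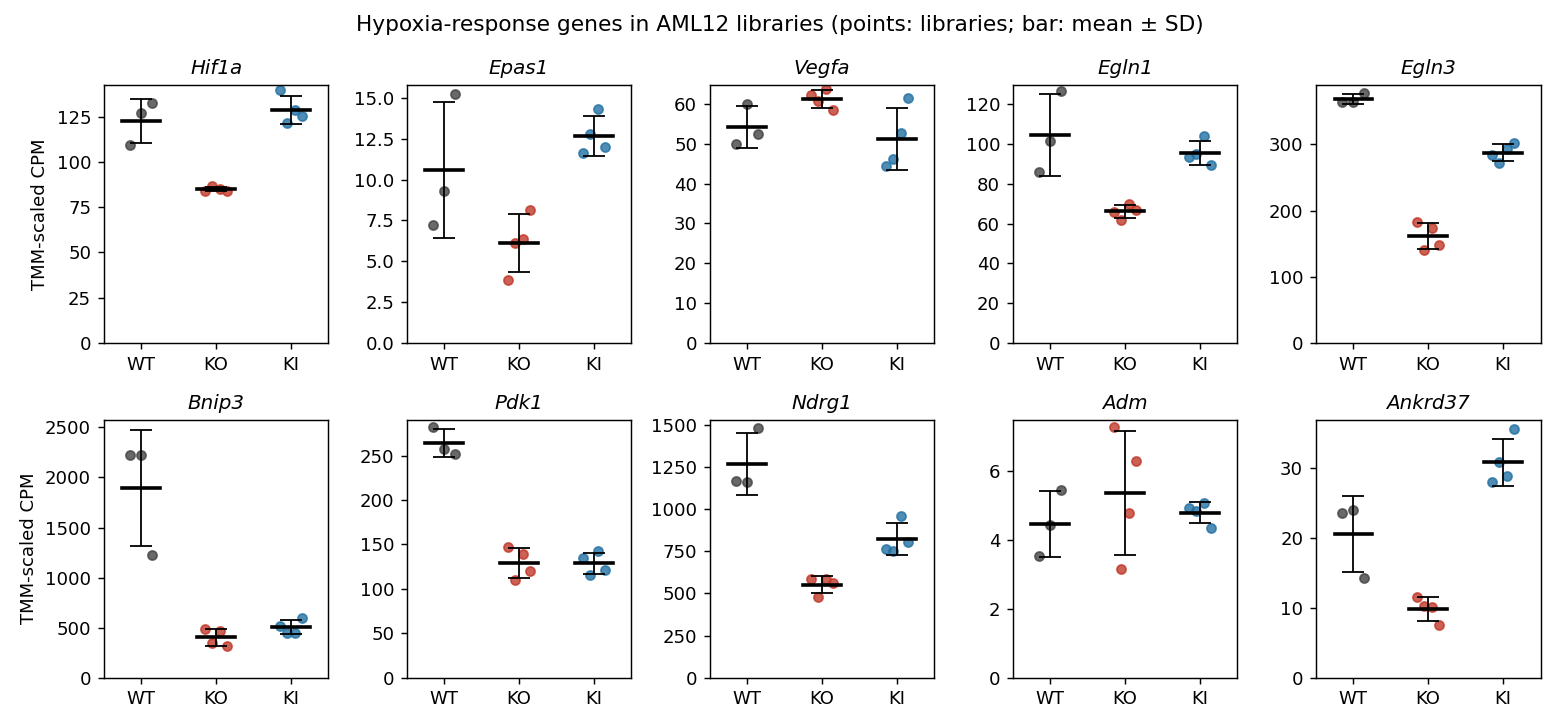
TMM-scaled CPM (vertical axis, from 0, a separate scale for each gene) of the 10 hypoxia-response genes in the WT, KO and KI libraries, with a point for each library, a thick bar for the mean and error bars for the SD (n = 3, 4 and 4). KO libraries lie below all WT libraries for Hif1a, Egln1, Egln3, Bnip3, Pdk1, Ndrg1 and Ankrd37, and 1 WT library lies well below the other WT libraries for Bnip3, at 1221 CPM.

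The comparison of KO with WT asks how these genes stood in cells without TXNDC5. In KO, 8 of the 10 members were lower and none was higher, with the largest difference in Bnip3. Called genes were common in this comparison: 55.1% of the 13359 genes tested passed an adjusted p under 0.05, 28.4% as lower and 26.7% as higher. The median log2 fold change was -0.93 over the 10 members and -0.03 over all genes tested. For 7 of the 10 members the KO and WT libraries did not overlap, against 55.3% of all genes. In KI, 4 members were lower than in WT and 1 was higher, where 42.3% of 13534 genes passed, 21.0% as lower and 21.2% as higher. The KI and WT libraries did not overlap for 5 of the 10 members, against 44.7% of all genes. The median there was -0.11 over the members and -0.02 over all genes. The 2 comparisons share the WT libraries and are not independent.

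The transcription factor subunits stand at the centre of the pathway. Hif1a was at 83.9, 86.8, 85.2 and 84.1 CPM in KO 5, 6, 7 and 8, at 109, 127 and 132 in WT 5-6, 7 and 8, and at 139.7, 122, 129 and 125 in KI 5, 6, 7 and 8. The KO libraries lay close together and below every WT and KI library, while WT and KI overlapped. Hif1a fell by 0.55 on the log2 scale in KO against WT (SE 0.11, edgeR adjusted p = 0.00187), and differed by 0.07 in KI against WT (95% interval -0.22 to 0.35, edgeR adjusted p = 0.708). This fall was among the 3 that depended on the scaling: scaled by library totals, the KO difference was -0.15 (edgeR adjusted p = 0.418).

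Epas1, the alpha subunit best known for control of erythropoietin and of lipid handling in the liver, was expressed at a low level. It was at 3.84, 6.13, 6.33 and 8.15 CPM in KO, at 7.22, 9.28 and 15.2 in WT and at 11.6, 12.8, 14.3 and 12.0 in KI, in the same order of libraries. KO 8 lay above WT 5-6, so the groups overlapped, and WT 8 was well above the other WT libraries. Epas1 fell by 0.81 in KO against WT (SE 0.29, edgeR adjusted p = 0.0333). That call was lost when any of KO 5, KO 6, KO 7, WT 7 or WT 8 was left out, with a difference of -0.42 without WT 8 (edgeR adjusted p = 0.189), and with library totals it was -0.43 (edgeR adjusted p = 0.303). In KI the difference from WT was 0.26 (95% interval -0.23 to 0.75, edgeR adjusted p = 0.383), and without WT 8 it was 0.62 and passed the test (edgeR adjusted p = 0.0129).

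Both oxygen sensors among the members were lower in KO. Egln2, another prolyl hydroxylase but not a member, went the other way, at 97.4 to 117 CPM in KO against 58.1 to 60.9 in WT. It rose by 0.80 in KO (SE 0.12, edgeR adjusted p = 0.000184) and did not pass the test in KI (0.13, edgeR adjusted p = 0.419). Egln1 encodes PHD2, the main hydroxylase that restrains HIF-1α, and was at 65.7, 62.0, 70.0 and 66.9 CPM in KO, at 85.8, 102 and 127 in WT and at 93.8, 95.2, 104 and 89.8 in KI. The KO libraries lay below all others, and the KI libraries lay within the WT range. Egln1 fell by 0.68 in KO against WT (SE 0.14, edgeR adjusted p = 0.00173), a call lost with library totals (-0.29, edgeR adjusted p = 0.206), and differed by -0.13 in KI (95% interval -0.45 to 0.19, edgeR adjusted p = 0.502).

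Egln3 encodes PHD3, a hydroxylase whose own gene is strongly induced by HIF. Its levels were 183, 141, 174 and 148 CPM in KO, 364, 365 and 378 in WT and 284, 272, 292 and 303 in KI. The 3 groups did not overlap, with KO lowest, KI between and WT highest. Egln3 fell 2.32-fold in KO against WT (log2 fold change -1.21 ± 0.13 SE, edgeR adjusted p = 2.2e-05) and fell by 0.36 in KI (SE 0.13, edgeR adjusted p = 0.0367). The KI call was near the threshold: it was lost without WT 7, KI 5, KI 6 or KI 7, with no filter on low counts (edgeR adjusted p = 0.0865), and with library totals, where the difference was -0.03.

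**Figure D2:**
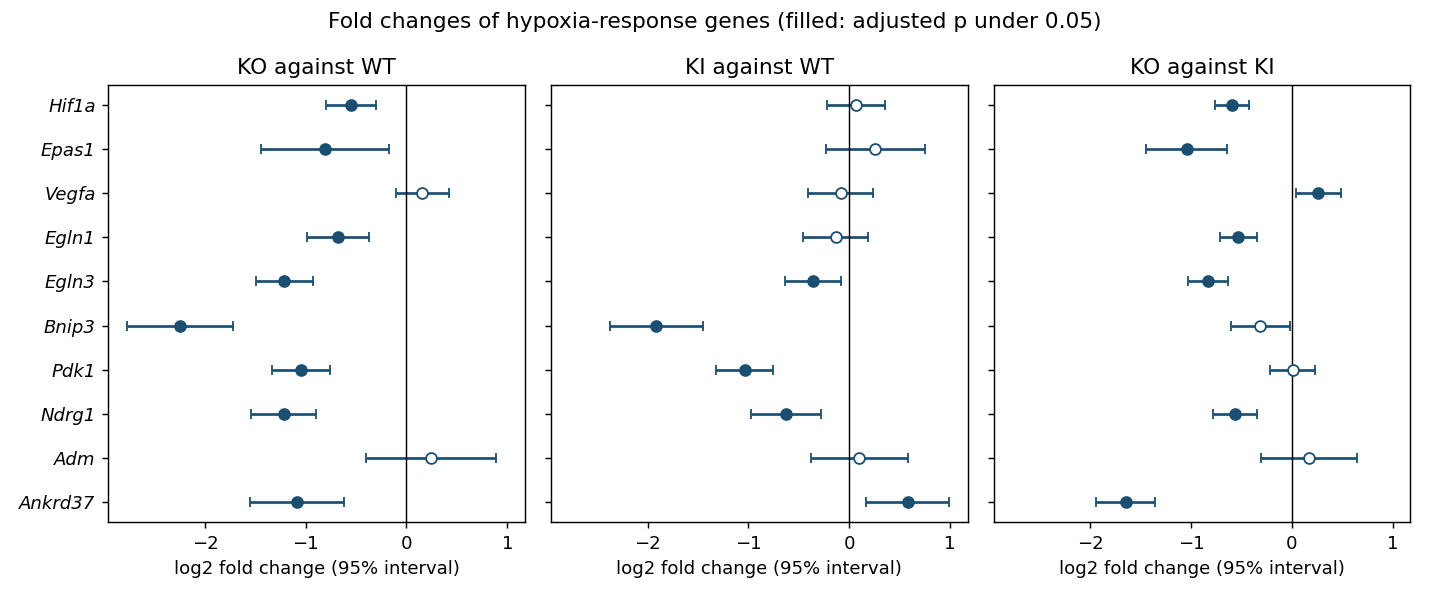
Log2 fold change (horizontal axis) of each hypoxia-response gene in KO against WT, KI against WT and KO against KI, with 95% intervals from the edgeR fit and filled points where the adjusted p was under 0.05. Bnip3 and Pdk1 lie to the left of 0 in both comparisons with WT, at -2.25 and -1.05 in KO and at -1.91 and -1.04 in KI, while Ankrd37 lies at -1.09 in KO and at 0.58 in KI.

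Targets that act on mitochondria were low in both edited lines. Bnip3 encodes a protein of the outer mitochondrial membrane that marks mitochondria for removal by autophagy. It was at 489.9, 349.9, 463 and 314 CPM in KO, at 2228, 2221 and 1221 in WT and at 516, 451, 446 and 600.1 in KI. Every KO and KI library was under the lowest WT library, WT 8, which itself was well under the other WT libraries. Bnip3 fell 4.75-fold in KO (log2 fold change -2.25 ± 0.24 SE, edgeR adjusted p = 2.3e-05) and 3.76-fold in KI (-1.91 ± 0.21, edgeR adjusted p = 2.8e-05). Without WT 8 the differences were -2.45 and -2.14, and with library totals the KO difference was -1.80. Exons of Gm45507, on the opposite strand, cover 22.3% of those of Bnip3, and since the library kit as described does not record strand, reads there cannot be told apart.

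Pdk1 encodes a kinase that inactivates pyruvate dehydrogenase and so holds pyruvate back from the mitochondrial citric acid cycle. Its levels were 147, 110.25, 139 and 120.4 CPM in KO, 282, 257 and 252 in WT and 135, 116, 142 and 121 in KI. KO and KI libraries covered the same range, below every WT library. Pdk1 fell 2.07-fold in KO (log2 fold change -1.05 ± 0.13 SE, edgeR adjusted p = 6.6e-05) and 2.05-fold in KI (-1.04 ± 0.13, edgeR adjusted p = 6.8e-05).

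Ndrg1, a stress-responsive gene linked to growth arrest and differentiation, was second to Bnip3 in level per kilobase. It was at 584, 479, 584 and 564 CPM in KO, at 1165, 1163 and 1482 in WT and at 764, 754, 959 and 806 in KI. As for Egln3, the 3 groups did not overlap and KI lay between KO and WT. Ndrg1 fell 2.33-fold in KO (log2 fold change -1.22 ± 0.15 SE, edgeR adjusted p = 5.3e-05) and 1.55-fold in KI (-0.63 ± 0.16, edgeR adjusted p = 0.00717). With library totals the KI difference was -0.31 and no longer passed (edgeR adjusted p = 0.184).

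Ankrd37, a small ankyrin-repeat gene known as a direct HIF-1 target, was the member that moved in opposite directions in the edited lines. It was at 11.5, 10.2, 10.1 and 7.50 CPM in KO, at 23.5, 24.0 and 14.3 in WT and at 28.1, 30.9, 28.9 and 35.6 in KI. The groups did not overlap, with KO lowest and KI highest, and WT 8 was again well under the other WT libraries. Ankrd37 fell 2.13-fold in KO (log2 fold change -1.09 ± 0.21 SE, edgeR adjusted p = 0.00127) and rose 1.5-fold in KI (0.58 ± 0.19, edgeR adjusted p = 0.0258). The rise in KI was lost without KI 6 (0.58, edgeR adjusted p = 0.0563) or KI 8 (0.51, edgeR adjusted p = 0.065), and without WT 8 it was 0.38 (edgeR adjusted p = 0.0399), more than 1.5 times smaller. Exons of Lrp2bp on the opposite strand cover 22.7% of the annotated exons of Ankrd37 and exons of Ufsp2 another 3.7%, with the same limit on strand. Lrp2bp was at 0.66 to 1.18 CPM in KO, 5.04 to 5.77 in WT and 2.70 to 4.36 in KI, and Ufsp2 at 36.1 to 42.4, 46.5 to 87.9 and 36.8 to 46.2.

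The secreted factors did not pass the test in either edited line. Vegfa, the main vascular growth factor, was at 62.2, 60.7, 63.7 and 58.4 CPM in KO, at 49.98, 60.0 and 52.3 in WT and at 44.4, 46.1, 52.7 and 61.4 in KI. The 3 groups overlapped. The difference was 0.16 in KO (95% interval -0.10 to 0.42, edgeR adjusted p = 0.279) and -0.08 in KI (-0.41 to 0.24, edgeR adjusted p = 0.681). With library totals Vegfa was 0.57 higher in KO and passed the test (edgeR adjusted p = 0.00541), so its side of the threshold rests on the scaling.

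Adm encodes adrenomedullin, a vasodilator peptide, and was expressed at a low level. Its levels were 7.29, 3.17, 4.77 and 6.28 CPM in KO, 3.52, 4.44 and 5.45 in WT and 4.92, 4.85, 5.07 and 4.35 in KI. KO spread the widest, with a coefficient of variation of 33.5%, and its range enclosed those of WT and KI. The difference was 0.24 in KO (95% interval -0.40 to 0.89, edgeR adjusted p = 0.502) and 0.10 in KI (-0.38 to 0.58, edgeR adjusted p = 0.751), so the interval in KO leaves room for a difference of up to 0.89.

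**Figure D3:**
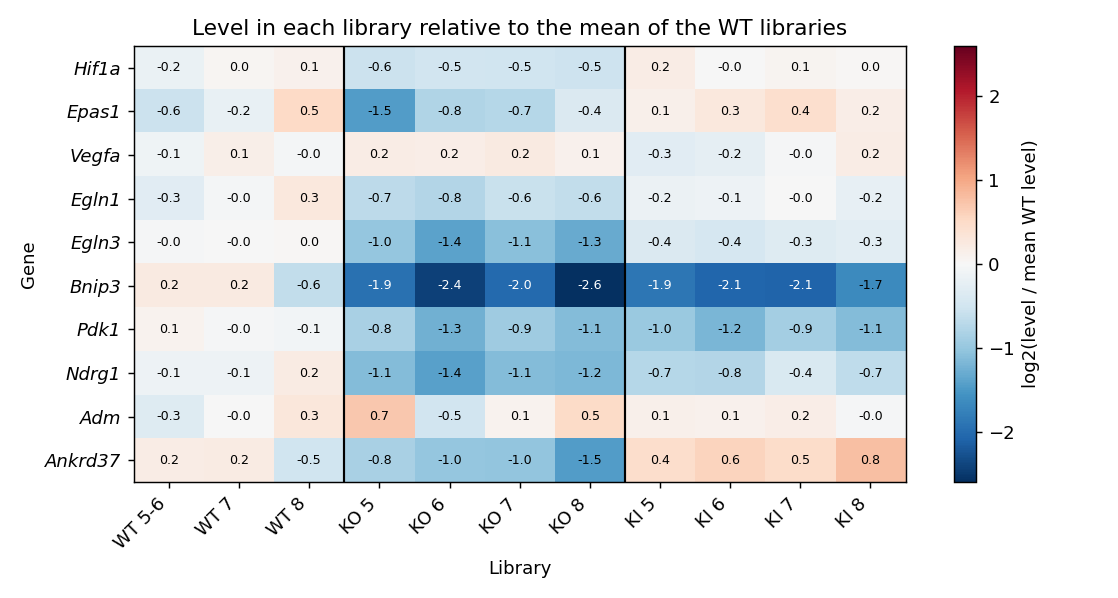
Level of each hypoxia-response gene (rows) in each library (columns) as the log2 ratio to the mean WT level, printed in each cell and coloured from blue (lower) to red (higher). The Bnip3 row is lowest, from -1.9 to -2.6 in KO and from -1.7 to -2.1 in KI, and the WT 8 column holds -0.6 for Bnip3 and -0.5 for Ankrd37 beside 0.5 for Epas1.

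WT 8 was the highest WT library for 6 members and the lowest for 3 (Bnip3, Ankrd37 and Pdk1), while WT 5-6 was the lowest for 6. Since the WT group holds 3 libraries, no test for a library that stands apart was made. Of the 8 falls in KO, all but that of Epas1 passed the test with any single library left out, and the falls of Egln3, Bnip3, Pdk1, Ndrg1 and Ankrd37 passed with library totals as well.

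Whether the edited lines differed from each other was tested directly as KO against KI. Of the 10 members 6 were lower in KO than in KI and 1 was higher, where 54.0% of 13269 genes passed, 27.0% in each direction, and the median was -0.55 over the members and 0.00 over all genes. Ankrd37 differed most, 3.13-fold lower in KO (log2 fold change -1.65 ± 0.14 SE, edgeR adjusted p = 1.0e-07). Egln3 fell by 0.83 (SE 0.09, edgeR adjusted p = 3.2e-06), Hif1a by 0.60 (SE 0.08, edgeR adjusted p = 1.5e-05) and Egln1 by 0.53 (SE 0.08, edgeR adjusted p = 8.6e-05). Epas1 fell by 1.04 (SE 0.19, edgeR adjusted p = 0.000273), a call that held with any single library left out, and Ndrg1 by 0.57 (SE 0.10, edgeR adjusted p = 0.000255). For these 6 the KO and KI libraries did not overlap, against 48.6% of all genes.

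Bnip3 and Pdk1, low in both edited lines, did not pass the test between them. Bnip3 differed by -0.31 (95% interval -0.61 to -0.02, edgeR adjusted p = 0.067), and passed without KO 5, KO 7 or KI 7 and by DESeq2. Pdk1 differed by 0.01 (-0.21 to 0.23, edgeR adjusted p = 0.944), an interval that leaves out any difference above 0.23 on the log2 scale, and Adm by 0.17 (-0.30 to 0.64, edgeR adjusted p = 0.544). Vegfa was 0.26 higher in KO (SE 0.10, edgeR adjusted p = 0.0443) with overlapping libraries, and 6 of the 8 fits with a library left out did not call it.

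**Figure D4:**
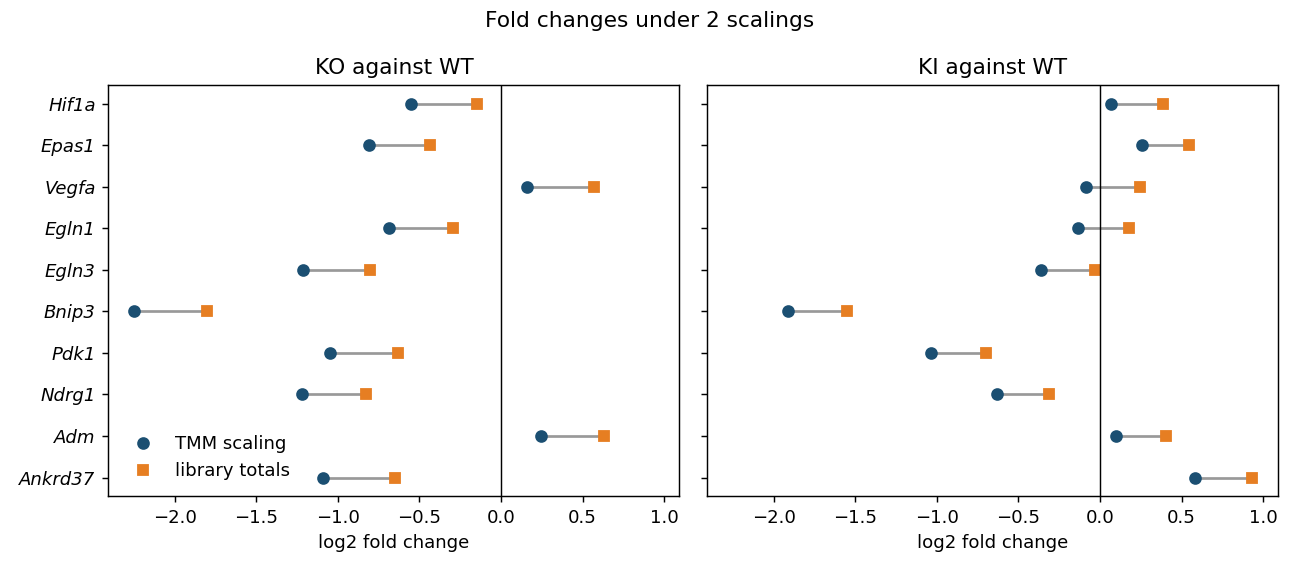
Log2 fold change (horizontal axis) of each hypoxia-response gene in KO against WT and KI against WT under TMM scaling (circles) and under scaling by library totals (squares). Every gene lies further to the right with library totals, by about the shift of the median of all genes, and Bnip3 stays at -1.80 in KO.

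Scaling by library totals moved the median over all genes from -0.03 to 0.38 in KO against WT and from -0.02 to 0.31 in KI against WT. The median of the members moved with it, from -0.93 to -0.53 and from -0.11 to 0.21. A change of scaling moves all genes by about the same amount. The distance of the members from the median of all genes therefore cannot show whether their falls depend on the scaling. A single unannotated entry took 11.3 to 17.1% of the counts in WT, 4.32 to 6.44% in KO and 4.82 to 9.12% in KI. Without the 2 unannotated entries with the most counts, each of the 30 member values kept its direction and its side of the threshold under TMM. Library totals were not recomputed without these entries, so their part in that scaling was not tested.

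Members shared chromosomes, and chromosomes differed in their own medians. Chromosome 7 carries Bnip3 and Adm, and its 932 tested genes had a median of 0.53 in KO against WT. Hif1a and Egln3 lie on chromosome 12, with a median of -0.35 over 404 genes in KO and 0.06 in KI. Hif1a, at -0.55 in KO, was thus near the median of its chromosome, and Bnip3, at -2.25, was far below that of its own. Medians in KO were 0.27 for chromosome 2 (Pdk1), -0.06 for chromosome 8 (Egln1 and Ankrd37), 0.07 for chromosome 15 (Ndrg1) and 0.14 for chromosome 17 (Epas1 and Vegfa). The part of chromosome-wide shifts in the members' differences was not tested.

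The wider pathway was followed in lists of related genes. With library totals the counts in KO were 2 higher and 19 lower for the other HIF targets and 0 and 9 for glucose uptake and glycolysis, and those of the VEGF, adrenomedullin receptor and NDRG lists stayed as given below. Of 30 other known HIF targets 27 were tested, and 22 were lower and 1 higher in KO, with a median of -1.36. Of all genes tested, 28.4% were lower and 26.7% higher in KO, with a median of -0.03. Ddit4, an inhibitor of growth signalling through mTORC1, rose by 0.54 (edgeR adjusted p = 0.00308). Plod2, a collagen lysyl hydroxylase, was at 12.6 to 17.4 CPM in KO against 367 to 588 in WT, and fell by 5.05 on the log2 scale (edgeR adjusted p = 4.1e-08). Stc2, a secreted glycoprotein, had 11 counts in all 4 KO libraries together, against 188 to 327 in each WT library. In KI 15 of the 27 were lower and 3 higher, with a median of -0.61, where 21.0% of all genes were lower and 21.2% higher. Bnip3l, the paralog of Bnip3 and singled out after its values were seen, fell by 2.19 in KO (edgeR adjusted p = 8.3e-06) and by 1.69 in KI (edgeR adjusted p = 2.1e-05). Lox, Epo and Cox4i2 were too low to be tested, with Lox and Epo at 0 counts in every library.

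**Figure D5:**
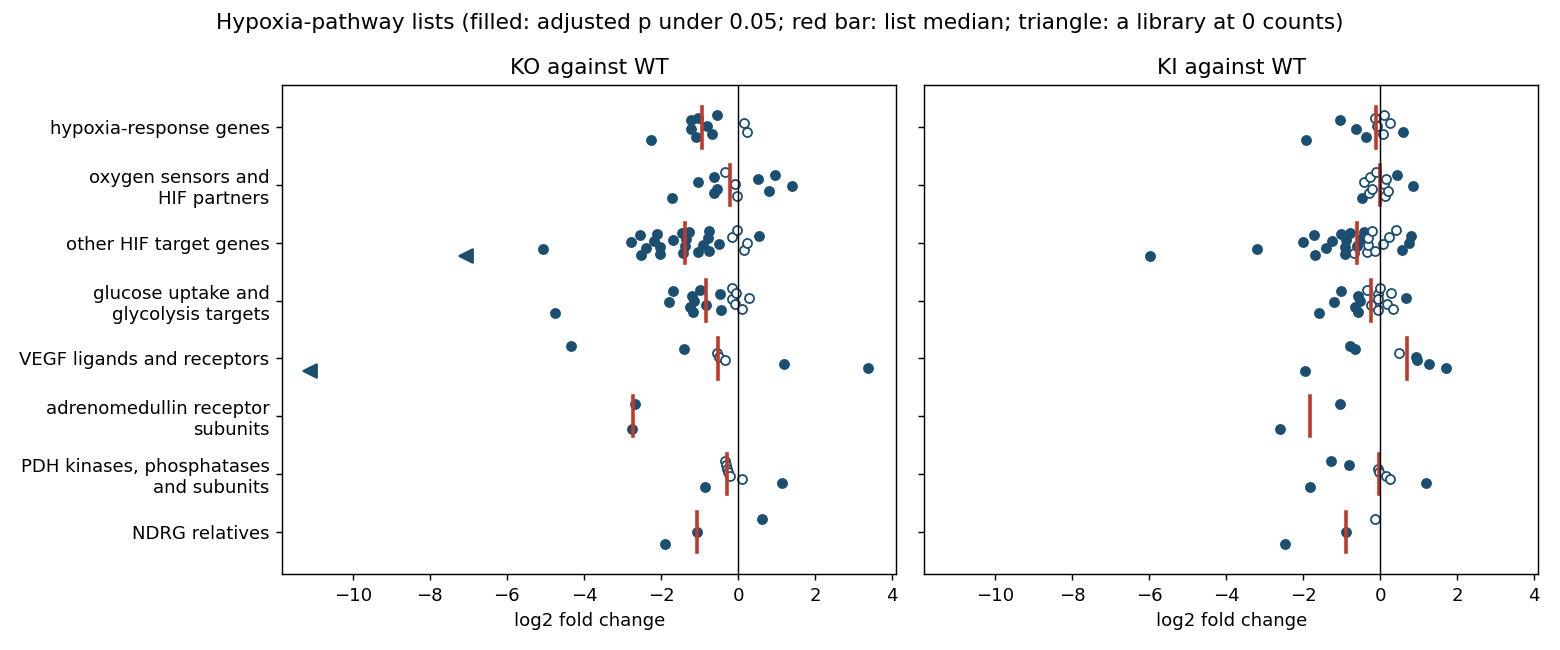
Log2 fold change (horizontal axis) of the tested genes of each pathway list (rows) in KO against WT and KI against WT, filled where the adjusted p was under 0.05, with a red bar at the list median. A triangle marks a gene with a library at 0 counts, whose fitted value is not a bound on the change. The list of other HIF targets lies mostly to the left of 0 in KO, with a median of -1.36, and oxygen sensors and HIF partners lie on both sides.

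Genes of glucose uptake and glycolysis, which HIF-1 is known to induce together with Pdk1, were lower for 11 of 17 tested in KO and higher for none, with a median of -0.82. Of all genes, 28.4% were lower and 26.7% higher in KO. Slc16a3, the lactate exporter MCT4, was at 1.10 to 2.42 CPM in KO against 44.1 to 57.9 in WT and fell by 4.74 (edgeR adjusted p = 1.3e-07). Pgk1, phosphoglycerate kinase, fell by 1.80 (edgeR adjusted p = 1.8e-05). In KI 7 were lower and 1 was higher, with a median of -0.24. These 8 of 17 were a share near the 42.3% of all genes called in KI, but the directions were less even than over all genes. Of all genes, 21.0% were lower and 21.2% higher in KI. Several glycolytic genes have near-identical processed copies in the mouse genome, so their counts are uncertain where reads could be split.

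Oxygen sensors and HIF partners moved both ways in KO, with 4 higher and 5 lower of 12 tested and a median of -0.21, beside 55.1% of all genes called. With library totals 5 were higher and 2 lower, so the balance of directions rests on the scaling. Siah2, a ubiquitin ligase that acts on prolyl hydroxylases, rose from 2.62 to 3.30 CPM in WT to 6.74 to 8.74 in KO (log2 fold change 1.40, edgeR adjusted p = 0.000155), and its relative Siah1a fell by 1.72 (edgeR adjusted p = 8.1e-06). Hif3a, a HIF alpha subunit with inhibitory forms, rose by 0.95 (edgeR adjusted p = 0.00087). Eloc, the elongin C of the von Hippel-Lindau complex, fell by 1.05 (edgeR adjusted p = 0.000811). In KI 2 were higher and 1 was lower, beside 42.3% of all genes called.

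The relatives and receptors of the secreted members were followed in their own lists. Of 8 VEGF ligands and receptors tested, 2 were higher and 3 lower in KO, a share near the 55.1% of all genes called, and the other 3 did not pass the test. Flt1, a VEGF receptor, had 2 counts in all 4 KO libraries together against 737 to 1284 in each WT library and 661 to 1016 in each KI library. Nrp1, a co-receptor, was at 0.115 to 1.63 CPM in KO, 9.67 to 14.3 in WT and 20.8 to 26.7 in KI, and fell by 4.34 in KO (edgeR adjusted p = 9.8e-05). Nrp2 was higher in both lines, at 51.0 to 64.1 CPM in KO and 70.2 to 99.7 in KI against 20.2 to 31.9 in WT, and Vegfd, at 3 to 10 counts per WT library, was at 74 to 128 counts per KO library. In KI 4 of the 8 were higher and 3 lower, beside 42.3% of all genes called.

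The adrenomedullin receptor list held 4 genes, Calcrl and the accessory subunits Ramp1, Ramp2 and Ramp3. Of these, 2 were tested and both were lower in both lines, beside 55.1% of all genes called in KO and 42.3% in KI. Calcrl was at 1.598 to 2.13 CPM in KO, 9.99 to 14.4 in WT and 1.00 to 3.01 in KI, and Ramp1 at 0.54 to 1.46, 4.88 to 8.20 and 1.99 to 3.65. Calcrl fell by 2.68 and Ramp1 by 2.76 in KO (edgeR adjusted p = 2.4e-06 and 0.000103). Ramp2 was at 0 counts in every library, and Ramp3 had at most 4 counts in any. Whether Calcrl and Ramp1 form a receptor for adrenomedullin in these cells was not tested.

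Of 8 pyruvate dehydrogenase kinases, phosphatases and subunits around Pdk1, 1 was higher and 1 lower in KO, beside 55.1% of all genes called. Pdp2, a phosphatase that acts against the kinases, rose by 1.15 (edgeR adjusted p = 0.00362), and Pdk2, another kinase, fell by 0.84 (edgeR adjusted p = 0.00604). Without WT 8 the count was 4, and with library totals 2 were higher and 0 lower, so that the fall of Pdk2 was no longer called. In KI 1 was higher and 3 were lower, so 4 of the 8 were called, a share near the 42.3% of all genes. Of the 3 relatives of Ndrg1, Ndrg2 fell by 1.90 and Ndrg4 by 1.07 in KO, and Ndrg3 rose by 0.62 (edgeR adjusted p = 1.1e-05, 0.00246 and 0.00513). These 3 calls stood beside 55.1% of all genes called in KO. In KI, Ndrg2 and Ndrg4 were also lower, and Ndrg3 did not pass the test.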

How the data were processed

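Polyadenylated RNA of 11 AML12 libraries was counted per gene by the authors, and the deposited values are raw counts. The submitters' processing notes name HISAT2, TopHat2, Bowtie2 and StringTie without versions, and the genome build and counting tool are not given in the sources used here. Of 26472 lines 26462 were used, and counts were summed by gene name. The 11 FPKM columns, which had lost their decimals, and 9 columns of the authors' own fold changes and p-values were not used. Each pair of groups was fitted with edgeR 4.0.16 in R 4.3.3 (TMM, filterByExpr, robust quasi-likelihood test, Benjamini-Hochberg adjustment over all genes tested), with calls at an adjusted p under 0.05. All 10 members passed the filter. Total counts were 29840366 to 38422243 per library, libraries of a group differed by more than counting error, and intervals are 95% intervals of the fit, which reflect the spread between libraries. Exon lengths came from the GENCODE annotation of GRCm38. Alternatives used DESeq2 1.42.0, limma 3.58.1 on log2(CPM + 1), other scalings, other filters and left-out libraries. The scripts were tested on simulated counts. Members, lists and tests were chosen with earlier results of these data known. Named genes were the members, Txndc5, the 2 largest rises and falls called in KO in each pathway list, and the 3 genes most like Hif1a and Epas1 across libraries. Bnip3l, Egln2, Spp1, Krt19 and the other named cell type markers were named outside this rule. So were the genes whose exons overlap those of a member and the list genes too low to be tested.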

Additional observations from a re-analysis of the deposited data

How the results depend on the processing

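Each of the 30 member values (10 genes in 3 comparisons) was recomputed under 9 alternatives besides left-out libraries. Of these 270 values, 253 kept their direction and side of the threshold, 11 were no longer called, 2 became called and 4 changed sign, all 4 among members that were not called. With library totals, the higher share of called genes moved from 48.5% to 72.8% in KO against WT and from 50.2% to 76.3% in KI against WT. The members called in KI against WT then numbered 3, and those values that changed sign were 0.25 for Vegfa and 0.18 for Egln1 in KI against WT. In KO against KI, Pdk1 was -0.0037 with DESeq2 size factors and with the DESeq2 test.

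With each library left out in turn, members called ranged from 7 to 8 in KO against WT, from 3 to 6 in KI against WT (3 without KI 6, 6 without WT 8) and from 6 to 7 in KO against KI, and the pyruvate dehydrogenase list from 2 to 4 called in KO. All genes called ranged from 6161 to 8449, from 4276 to 6969 and from 6515 to 7230 in the 3 comparisons. Values that changed sign were Hif1a (-0.0081 to 0.126), Adm (-0.0435 to 0.269) and Egln1 (-0.254 to 0.0286) in KI against WT, and Pdk1 (-0.0635 to 0.0779) and Adm (-0.0148 to 0.352) in KO against KI. The causes were not tested.

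Libraries with the same number did not deviate together (correlations of deviations from -0.20 to 0.21), so the numbers were not taken as pairs, and in KO and KI 0 of the 8 libraries correlated best with the library of its own number. With a replicate block 8183, 4891 and 6453 genes were called in KO against WT, KI against WT and KO against KI, in place of 7364, 5722 and 7171. Under the block the calls of Egln3 in KI against WT (-0.35, edgeR adjusted p = 0.0882) and of Vegfa in KO against KI (0.28, edgeR adjusted p = 0.0685) were lost, and no other member call changed. No pair of libraries of a group agreed within sampling noise. Standard errors in KO against WT were 0.29 for Epas1 and Adm, at 79 to 430 counts per library, and 0.24 for Bnip3, at 11817 to 55048 counts.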

Other observations

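The genes whose level followed that of Hif1a most closely over the 11 libraries, among 13948 genes searched by the Pearson correlation of log2 CPM, were Chst15 (0.99), Fam171a1 (0.99) and Sort1 (0.98). Chst15 was at 0.00 CPM in KO, 0.534 in WT and 1.04 in KI, so its likeness rests on very few counts, while Fam171a1 was at 3.75, 16.2 and 21.2 CPM and Sort1 at 2.76, 24.2 and 27.7. For Epas1 they were Zfp704 (0.98), Tns3 (0.97) and Atad2b (0.97), with Zfp704 at 15.1, 30.7 and 39.3 CPM in KO, WT and KI. These correlations are descriptions over libraries that fall into 3 groups, and no test was made on them.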
